A study of Mus musculus with 6 samples.

Results

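The 10 genes described here are the G1 cyclins Ccnd1, Ccnd2, Ccnd3 and Ccne2, the cyclin-dependent kinase (CDK) inhibitors Cdkn1a, Cdkn1b and Cdkn2c, the p53 targets Ccng1 and Mdm2, and the transcription factor gene Myc. They were chosen by name, with earlier results of these data known, and each matched 1 gene of the 41388 counted in every liver library. Of the 10, Cdkn1a alone passed the test between genotypes. Its mRNA was 2.99-fold higher in *Mttp-IKO* liver than in control liver. Ccnd1, Ccnd2, Cdkn2c and Ccng1 were lower in every *Mttp-IKO* pool than in any control pool, but none of these differences passed the test. Of all 17287 genes tested, 4.01% passed the test and 16.5% were likewise lower without overlap. Ccnd3, Ccne2, Cdkn1b, Mdm2 and Myc overlapped between genotypes.

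The samples were RNA-Seq libraries of liver from C57BL/6 mice fed a methionine- and choline-deficient (MCD) diet for 3 weeks, with 3 control and 3 *Mttp-IKO* libraries. All mice carried floxed Mttp and Villin Cre ERT2, a tamoxifen-inducible Cre that the Villin promoter drives in gut epithelium. *Mttp-IKO* mice had received tamoxifen (50 µg per g body weight per day for 5 days) and the controls, which the labels call wild type, had received vehicle, so that tamoxifen and the loss of intestinal Mttp cannot be told apart. Mice were 12 to 16 weeks old at the start of the diet, 3 weeks after injection, and livers were taken after 4 hours of fasting by the labels and up to 6 hours by the study's methods. Each library was a pool of RNA, from 3 to 4 mice by the study's methods, while the series text gives 12 livers without stating clearly whether this is per genotype, so p-values measure the spread between pools, which is expected to be smaller than that between mice. The labels do not give the sex of the mice, and the study describes its 3-week MCD experiment as one in males. Mttp is needed to assemble chylomicrons in gut and very-low-density lipoproteins in liver, and because only the gut copy was deleted, a liver library cannot check the genotype.

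D-type cyclins activate CDK4 and CDK6 early in G1, and cyclin E activates CDK2 later in G1. Together these kinases phosphorylate the retinoblastoma proteins and free E2F factors, which turn on the genes of DNA replication. Inhibitors of the INK4 family, to which the product of Cdkn2c belongs, block CDK4 and CDK6, while those of the Cip/Kip family, encoded by Cdkn1a and Cdkn1b, act mainly on CDK2 complexes. The p53 protein induces Cdkn1a, Mdm2 and Ccng1 after DNA damage and other stresses, and the product of Mdm2 is the ligase that marks p53 for degradation. Hepatocytes in adult liver are mostly quiescent and re-enter the cycle after loss of tissue, when Myc and Ccnd1 mRNA are induced.

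Promoter sequence is shown for 3 genes known as p53 targets, because their mRNAs did not share a direction between genotypes. RefSeq promoter windows (GRCm38.p6) matched 6 of the 10 genes with 9 windows. Each sequence covers the bases before the annotated transcript start that lie outside annotated exons, and capitals mark a p53 response element. A response element was searched as a pair of adjoining half-sites of the p53 consensus with no gap and at most 1 mismatch, and because the consensus is a palindrome a single search covers both strands. Cdkn1a is at chr17:29090729-29090975 on the + strand, Ccng1 at chr11:40755312-40755536 on the - strand and Mdm2 at chr10:117710759-117711008 on the - strand.
Cdkn1a: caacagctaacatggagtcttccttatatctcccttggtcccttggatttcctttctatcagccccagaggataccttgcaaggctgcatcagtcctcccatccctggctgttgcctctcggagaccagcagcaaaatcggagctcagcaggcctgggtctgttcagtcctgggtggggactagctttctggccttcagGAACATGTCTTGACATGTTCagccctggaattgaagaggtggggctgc
Ccng1: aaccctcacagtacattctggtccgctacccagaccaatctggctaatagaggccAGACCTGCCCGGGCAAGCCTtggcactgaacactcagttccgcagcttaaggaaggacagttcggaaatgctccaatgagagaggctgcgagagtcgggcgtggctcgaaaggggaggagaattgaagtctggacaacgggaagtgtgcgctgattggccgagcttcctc
Mdm2: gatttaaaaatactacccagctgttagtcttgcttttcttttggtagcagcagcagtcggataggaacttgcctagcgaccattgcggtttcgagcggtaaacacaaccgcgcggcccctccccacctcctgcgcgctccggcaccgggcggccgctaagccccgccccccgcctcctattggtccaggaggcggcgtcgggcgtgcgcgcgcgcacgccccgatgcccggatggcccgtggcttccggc
The element of Cdkn1a lies at chr17:29090928-29090947, 51 to 32 bases before the upstream transcript start at 29090979, and no match was found in the window of a second start at 29093769. The element of Ccng1 lies at chr11:40755462-40755481, 195 to 176 bases before its start. No match was found in the window of Mdm2, which says only that these letters are not in the bases printed. Of 32851 RefSeq windows of 250 bases, 25 (0.0761%) held such an element. The 25 windows belonged to 25 genes, of which 9 were tested in these livers, and of those 9, 4 were higher and 5 lower in *Mttp-IKO* liver. Cdkn1a was the only one of the 9 to pass the test, against 4.01% of all genes tested. The median log2 fold change of the 9 was -0.58, against 0.01 over all genes. The 9 include Cdkn1a and Ccng1, and these values are a description. A match is a description of the sequence and not evidence that p53 was bound in these livers.

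Libraries held 25271585 to 36238734 counted reads, at which 3 reads correspond to 0.0828 to 0.119 CPM (counts scaled to library size). Levels are given as CPM scaled by trimmed mean of M values (TMM), with scaling factors of 0.898 to 1.11. Reads of small RNA genes made up 3.60 to 5.27% of counts in 5 pools and 0.642% in *Mttp-IKO* pool 3. Hepatocyte markers (8 genes) summed to 54787 to 88206 CPM across control pools, against 106517 to 163394 CPM in *Mttp-IKO* pools, and 1 of the 8 rose. Without overlap between genotypes, 4 of the 8 were higher and 1 was lower in *Mttp-IKO* pools. Stellate cell markers (8 genes) summed to 824 to 1557 CPM across controls, against 466 to 523 CPM in *Mttp-IKO* pools, and 6 of 8 fell. Recruited macrophage markers (6 genes) summed to 233 to 730 CPM across controls, against 60.4 to 136 CPM in *Mttp-IKO* pools, and 4 of 6 fell. Striated muscle markers reached 553 CPM in control pool 2 and 66.5 CPM in control pool 1, and were at 0.461 to 1.03 CPM in the other pools. In the Kupffer list 1 of 5 markers rose. None passed in the endothelial, cholangiocyte, B cell, T cell, neutrophil, erythroid and small intestine lists. Of these, 3 of 4 B cell, 3 of 4 neutrophil and 3 of 5 small intestine markers entered the test. No pancreas marker entered it.

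The question for each gene was whether its mRNA differed between genotypes on the MCD diet. Across all 17287 genes tested with the quasi-likelihood test of edgeR, 694 (4.01%) passed an adjusted p of 0.05, of which 159 (0.92%) rose and 535 (3.09%) fell. Of the 10 genes, all of which entered the test, 1 (10%) passed. Control and *Mttp-IKO* pools were apart in 5 of the 10 genes, 1 higher and 4 lower in *Mttp-IKO* liver, against 31% of all genes tested (14.5% higher and 16.5% lower). Unadjusted p values under 0.05 were found for 4 of the 10 genes, against 23% of all genes. The median log2 fold change was -0.12 over the 10 genes and 0.01 over all genes. These counts are over 10 genes picked by name with earlier results of these data known, and are a description of them.

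**Figure D1:**
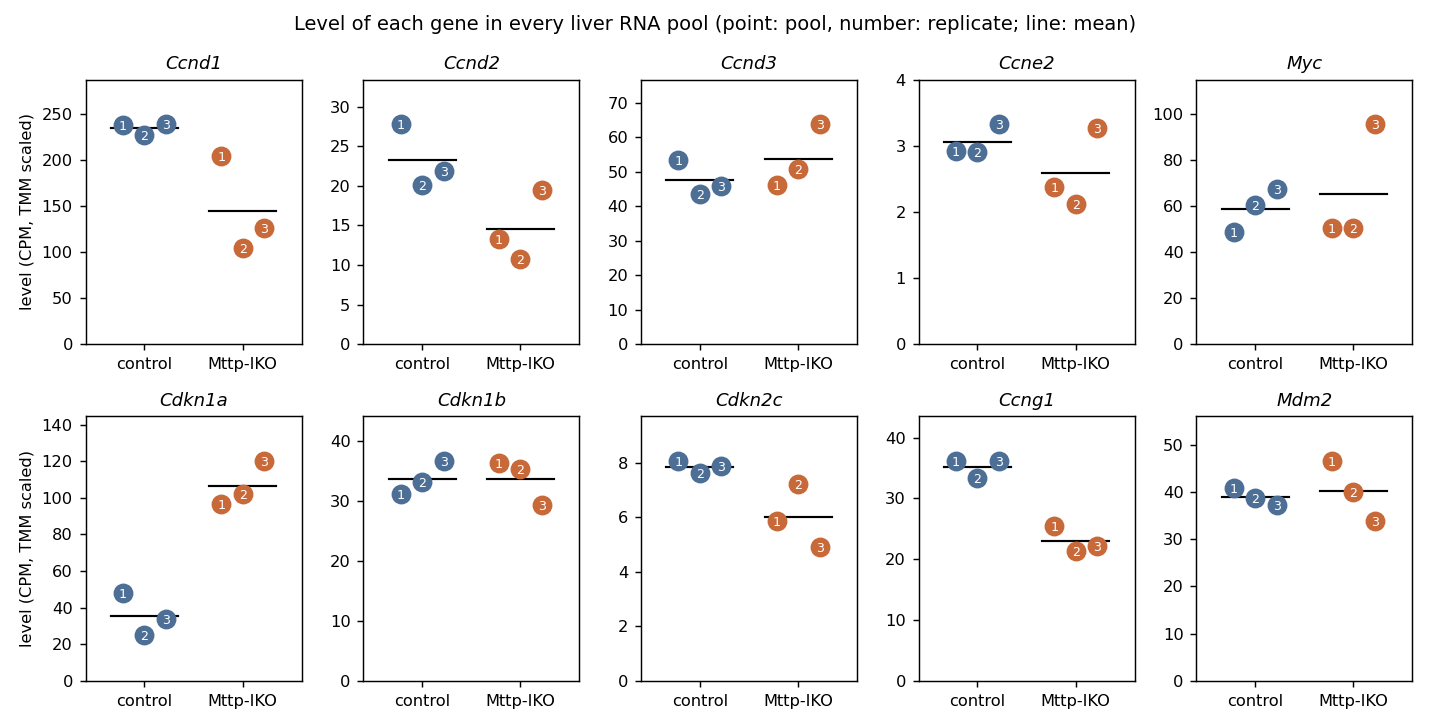
Level of each of the 10 genes in CPM (vertical axes, each from 0) in the 3 control (blue) and 3 *Mttp-IKO* (orange) liver RNA pools. Numbers inside the points give the replicate and horizontal lines the group means. Cdkn1a lies at 25.1 to 47.8 CPM across controls, against 96.9 to 120 CPM in *Mttp-IKO* pools, and Ccnd1 at 226 to 239 and 104 to 205 CPM.

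Ccnd1 (ENSMUSG00000070348, chr7:144929931-144939869, - strand, GRCm38) encodes cyclin D1, the D-type cyclin that leads hepatocytes into the cycle, and it was the most abundant of the 10 mRNAs per gene length in control liver. Its level was 237, 226 and 239 CPM across control pools 1 to 3, against 205, 104 and 126 CPM in *Mttp-IKO* pools 1 to 3. The control pools lay close together at 234 ± 6.88 CPM (mean ± SD, n = 3), while the *Mttp-IKO* pools were spread over 145 ± 53.01 CPM, with pool 1 near the control values. The log2 fold change was -0.70 (SE 0.255, 95% interval -1.28 to -0.11), which did not pass the test (edgeR adjusted p = 0.159). Leaving out 1 pool at a time gave -1.03 without *Mttp-IKO* pool 1 to -0.50 without *Mttp-IKO* pool 2. None of these fits called Ccnd1 (edgeR adjusted p of 0.0613 to 0.387). In whole liver, fewer cells of a type and less RNA per cell cannot be told apart, and this holds for every gene below. A stretch of 818 bases of Ccnd1 exon is shared with LTO1 on the opposite strand, and whether strand was used in counting is not given in the sources used here.

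Ccnd2 (ENSMUSG00000000184, chr6:127125779-127151048, - strand) encodes cyclin D2, another partner of CDK4 and CDK6. It measured 27.8, 20.2 and 21.9 CPM across control pools, against 13.3, 10.8 and 19.5 CPM in *Mttp-IKO* pools. All 3 *Mttp-IKO* pools were below the lowest control pool, although *Mttp-IKO* pool 3 missed control pool 2 by less than 1 CPM. The means were 23.3 ± 4.03 and 14.5 ± 4.48 CPM, with a log2 fold change of -0.68 (SE 0.245, 95% interval -1.25 to -0.12, edgeR adjusted p = 0.152). Without *Mttp-IKO* pool 3, the library low in small RNA reads, the log2 fold change was -0.95 and passed the test (edgeR adjusted p = 0.0420). Without any other single pool it was -0.51 to -0.80 and did not pass (edgeR adjusted p of 0.161 to 0.401), and no alternative with all 6 pools called it. The stellate cell and recruited macrophage markers were lower in the same pools, and their part in the values of Ccnd1 and Ccnd2 was not tested.

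Ccnd3 (ENSMUSG00000034165, chr17:47505051-47599691, + strand), which encodes cyclin D3, did not share the direction of the other D-type cyclins. Its level was 53.4, 43.6 and 45.9 CPM across controls, against 46.3, 50.7 and 63.9 CPM in *Mttp-IKO* liver, so that the groups overlapped. Means were 47.6 ± 5.10 and 53.6 ± 9.16 CPM. The log2 fold change was 0.17 (SE 0.172, 95% interval -0.23 to 0.57, edgeR adjusted p = 0.589), and its sign turned with scaling by total counts (-0.02). Bysl, on the opposite strand, shares 361 exonic bases with Ccnd3.

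Set against gene length, Ccnd1 made up most of the D-type cyclin mRNA in both genotypes. The lengths of Ccnd1, Ccnd2 and Ccnd3 are summed exons of 3835, 5701 and 8775 bases. Shares would differ where the transcripts made in these livers are shorter, which was not measured. The 3 cyclins summed to 72.9, 67.5 and 71.4 CPM per kb in control pools and to 60.9, 34.7 and 43.5 CPM per kb in *Mttp-IKO* pools. Ccnd1 held 86.6 ± 1.39% of this sum in control and 80.3 ± 6.41% in *Mttp-IKO* liver. The share of Ccnd3 was 8.34, 7.36 and 7.32% in control and 8.66, 16.6 and 16.8% in *Mttp-IKO* pools, higher in every *Mttp-IKO* pool, though by less than 1 percentage point in *Mttp-IKO* pool 1 against control pool 1. Ccnd2 held 5.77 ± 0.809% and 5.72 ± 2.04%. These shares were read per pool as a description and not tested.

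Ccne2 (ENSMUSG00000028212, chr4:11191351-11204779, + strand) encodes cyclin E2 and was the least abundant of the 10 genes, with 105 to 118 reads in control pools and 62 to 78 reads in *Mttp-IKO* pools. Its level was 2.93, 2.91 and 3.34 CPM across controls, against 2.39, 2.13 and 3.27 CPM in *Mttp-IKO* pools. Only *Mttp-IKO* pool 3 reached the control range, and the means were 3.06 ± 0.245 and 2.59 ± 0.601 CPM. A log2 fold change of -0.24 (SE 0.260, 95% interval -0.84 to 0.36, edgeR adjusted p = 0.618) was no larger than its error. Leaving out 1 pool at a time moved it from -0.12 without *Mttp-IKO* pool 2 to -0.44 without *Mttp-IKO* pool 3, and it was -0.42 with total count scaling and -0.14 with the length trend removed, none of which passed. Of its exonic bases, 609 are shared with Ints8 on the opposite strand.

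Myc (ENSMUSG00000022346, chr15:61985341-61990374, + strand), a driver of ribosome production and cell growth, measured 49.0, 60.6 and 67.6 CPM across controls, against 50.4, 50.4 and 95.9 CPM in *Mttp-IKO* pools. A single *Mttp-IKO* pool, number 3, stood above all others, and the other *Mttp-IKO* pools lay at the low end of the control range, with means of 59.1 ± 9.41 and 65.6 ± 26.3 CPM. Its log2 fold change was 0.15 (SE 0.275, 95% interval -0.48 to 0.78, edgeR adjusted p = 0.783). Without *Mttp-IKO* pool 3 it was -0.23, and with total count scaling -0.02, so that no direction can be given for Myc.

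Cdkn1a (ENSMUSG00000023067, chr17:29090979-29100722, + strand) encodes p21, the Cip/Kip inhibitor that p53 induces to hold cells before S phase, and it rose in *Mttp-IKO* liver. Its level was 47.8, 25.1 and 33.9 CPM across control pools, against 96.9, 102 and 120 CPM in *Mttp-IKO* pools. The lowest *Mttp-IKO* pool was above the highest control pool by more than the SD of either group. The means were 35.6 ± 11.4 and 107 ± 12.3 CPM (SD, n = 3 pools each), a log2 fold change of 1.58 (SE 0.244, 95% interval 1.02 to 2.14, edgeR adjusted p = 0.0205). Leaving out 1 pool at a time gave 1.36 to 1.83, but the call was lost without control pool 3 (edgeR adjusted p = 0.102), *Mttp-IKO* pool 1 (0.0613) or *Mttp-IKO* pool 2 (0.0998). Without control pool 2, which held the most reads of muscle markers, it was 1.36 (edgeR adjusted p = 0.0228). The number of genes called in all fell to 21, 55 and 0 without control pool 3, *Mttp-IKO* pool 1 or *Mttp-IKO* pool 2 (2539, 4457 and 3221 genes at an unadjusted p under 0.05). Hepatocyte markers were higher in the same pools as a sum, with 4 of the 8 genes higher and 1 lower without overlap. Their part in the Cdkn1a difference was not tested.

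Cdkn1b (ENSMUSG00000003031, chr6:134920401-134925513, + strand) encodes p27, the other widely expressed Cip/Kip inhibitor. It measured 31.0, 33.1 and 36.7 CPM across controls, against 36.2, 35.2 and 29.4 CPM in *Mttp-IKO* pools, with means of 33.6 ± 2.86 and 33.6 ± 3.71 CPM. The estimate was 0.00 on the log2 scale (SE 0.151), and the 95% interval of -0.35 to 0.35 excludes a difference of the size seen for Cdkn1a (edgeR adjusted p = 0.9999). Cdkn2c (ENSMUSG00000028551, chr4:109660876-109667189, - strand), which encodes the INK4 inhibitor p18, measured 8.08, 7.62 and 7.87 CPM across controls, against 5.87, 7.24 and 4.91 CPM in *Mttp-IKO* pools. The *Mttp-IKO* pools were lower without overlap, at 6.00 ± 1.17 against 7.86 ± 0.230 CPM, with a log2 fold change of -0.39 (SE 0.201, 95% interval -0.85 to 0.08, edgeR adjusted p = 0.292) that did not pass the test.

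The 3 inhibitors together held 31.3, 21.4 and 26.2 CPM per kb in control pools and 53.7, 56.4 and 62.4 CPM per kb in *Mttp-IKO* pools. Cdkn1a made up 59.8 ± 8.08% of this sum in control and 83.1 ± 3.14% in *Mttp-IKO* liver. The share of Cdkn1b was 28.8 ± 6.33% and 12.95 ± 2.33%, while its own level per length was 7.38 CPM per kb in both genotypes. The share of Cdkn2c was 11.3 ± 1.84% in control and 3.92 ± 0.931% in *Mttp-IKO* liver. The ratio of Ccnd1 to Cdkn1a per gene length was 2.88, 5.23 and 4.09 in control pools and 1.22, 0.588 and 0.605 in *Mttp-IKO* pools. Per gene length, Ccnd1 mRNA thus exceeded Cdkn1a mRNA in every control pool, whereas in *Mttp-IKO* pools 2 and 3 Cdkn1a exceeded Ccnd1. In CPM, not set against length, Ccnd1 was slightly above Cdkn1a in those 2 pools (104 against 102 and 126 against 120).

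**Figure D2:**
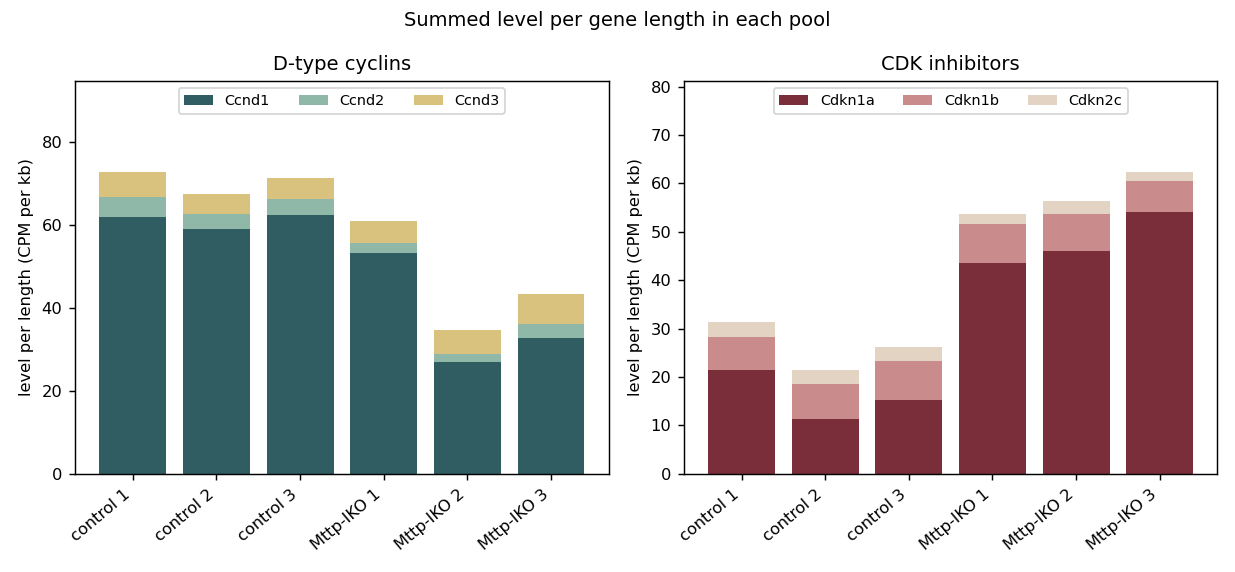
Stacked levels per gene length (CPM per kb, axes from 0) of the 3 D-type cyclins on the left and the 3 CDK inhibitors on the right, with 1 bar for each pool. The D-type cyclin bars reach 67.5 to 72.9 CPM per kb in control and 34.7 to 60.9 in *Mttp-IKO* pools, and the inhibitor bars 21.4 to 31.3 and 53.7 to 62.4, of which the dark Cdkn1a segment is the largest in every pool.

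Ccng1 (ENSMUSG00000020326, chr11:40748552-40755311, - strand) encodes cyclin G1, a p53-induced cyclin that binds protein phosphatase 2A. Its level was 36.2, 33.3 and 36.1 CPM across controls, against 25.4, 21.3 and 22.1 CPM in *Mttp-IKO* pools. The groups were tight and apart, with means of 35.2 ± 1.66 and 22.9 ± 2.17 CPM and a fold of 0.652. The log2 fold change of -0.62 (SE 0.141, 95% interval -0.94 to -0.29) narrowly missed the threshold (edgeR adjusted p = 0.0538). It passed with the Wald test of DESeq2 (adjusted p = 0.0125), with total count scaling (edgeR adjusted p = 0.0329) and without *Mttp-IKO* pool 3 (edgeR adjusted p = 0.0492). It did not pass with RLE scaling, limma-voom, no low-count filter, a replicate block or removal of the length trend (adjusted p of 0.0593 to 0.0869 by edgeR or limma), nor without any other single pool (edgeR adjusted p of 0.0788 to 0.221). Cdkn1a and Ccng1, the genes with a p53 element in the promoters printed above, therefore lay on opposite sides of the control range in all 3 *Mttp-IKO* pools.

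Mdm2 (ENSMUSG00000020184, chr10:117688888-117710758, - strand) measured 40.9, 38.7 and 37.4 CPM across controls, against 46.7, 39.9 and 33.9 CPM in *Mttp-IKO* liver, so that the *Mttp-IKO* pools spanned the whole control range. Means were 39.0 ± 1.78 and 40.2 ± 6.40 CPM. The log2 fold change was 0.04 (SE 0.159, 95% interval -0.32 to 0.41, edgeR adjusted p = 0.897), and its sign turned to -0.14 with total count scaling. Trp53, the gene of p53 itself, was at 35.1, 34.2 and 32.0 CPM across controls, against 40.5, 31.0 and 32.8 CPM in *Mttp-IKO* pools. Its log2 fold change was 0.04 (SE 0.154, edgeR adjusted p = 0.898). Neither mRNA level reports the amount or activity of the p53 protein.

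**Figure D3:**
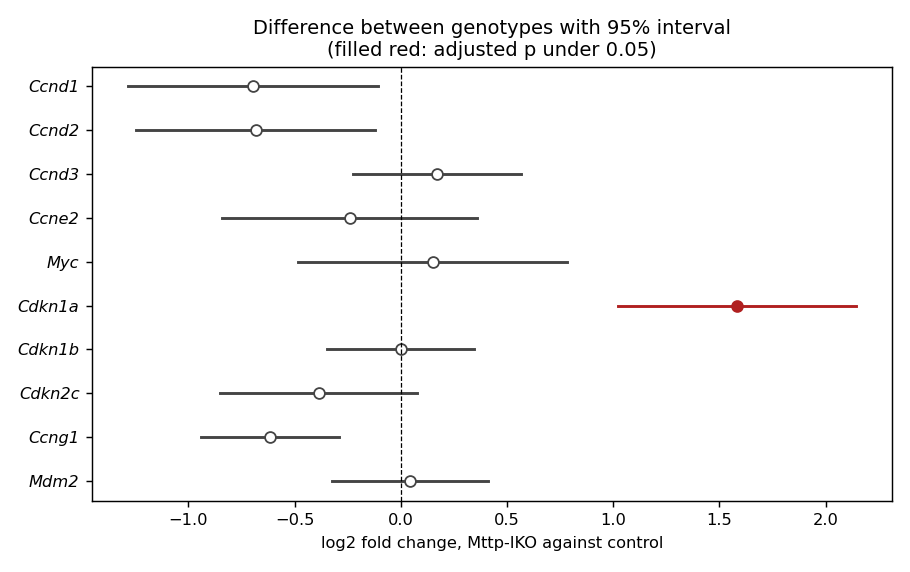
Log2 fold change of *Mttp-IKO* against control (horizontal axis, 0 at the dashed line) for each of the 10 genes, with points for estimates and lines for 95% intervals of the edgeR fit. The interval of Cdkn1a (red, adjusted p under 0.05) runs from 1.02 to 2.14, and those of Ccnd1, Ccnd2 and Ccng1 lie below 0 with adjusted p above 0.05.

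Ordered by level per gene length, control liver had Ccnd1 at 61.1 ± 1.79 CPM per kb, followed by Myc at 21.3 ± 3.40, Cdkn1a at 16.004 ± 5.15, Ccng1 at 10.02 ± 0.474, Mdm2 at 7.69 ± 0.352, Cdkn1b at 7.38 ± 0.629, Ccnd3 at 5.43 ± 0.581, Ccnd2 at 4.09 ± 0.707, Cdkn2c at 2.93 ± 0.0854 and Ccne2 at 0.875 ± 0.0700. Myc overlapped with Cdkn1a, and Mdm2 with Cdkn1b. In *Mttp-IKO* liver Cdkn1a came first at 47.9 ± 5.53 CPM per kb, ahead of Ccnd1 at 37.7 ± 13.8 and Myc at 23.7 ± 9.51, and these 3 overlapped as neighbours. Mdm2, Cdkn1b, Ccng1 and Ccnd3 followed at 7.92 ± 1.26, 7.38 ± 0.815, 6.53 ± 0.617 and 6.11 ± 1.04 CPM per kb, with overlap between neighbours down to Ccnd3. Ccnd2 at 2.55 ± 0.787 and Cdkn2c at 2.24 ± 0.436 overlapped, and Ccne2 remained last at 0.742 ± 0.172 CPM per kb.

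The genes whose levels across the 6 pools most resembled those of Cdkn1a were Cacna1b, Chd9 and 2610008E11Rik, with Pearson r of log2 CPM of 0.997, 0.995 and 0.994 among 12593 genes of sufficient level. A total of 90 genes had an r above 0.95, and with 6 pools in 2 groups these values are a description.

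Of the other genes of the G1 network (31 genes: CDKs, remaining cyclins and inhibitors, retinoblastoma and E2F proteins and their regulators), 2 fell and none rose (6.45% called, against 4.01% of all genes). With edgeR, 8 of the 31 had an unadjusted p under 0.05, 2 higher and 6 lower, against 23% of all genes. The pools did not overlap in 32.3% of the list, 3 genes higher and 7 lower, against 31% of all genes. The median log2 fold change was -0.00, against 0.01 over all genes. This list and those that follow were chosen with earlier results of these data known, and counts over them are a description. E2f1, the E2F that drives S phase entry, was at 8.36, 5.55 and 5.78 CPM across controls, against 1.90, 1.44 and 2.43 CPM in *Mttp-IKO* liver, a log2 fold change of -1.77 (SE 0.289, edgeR adjusted p = 0.0241). Cdc25b, a phosphatase that activates CDKs, was at 4.88, 3.94 and 3.62 CPM across controls, against 1.29, 1.41 and 1.80 CPM in *Mttp-IKO* liver, with a log2 fold change of -1.47 (SE 0.265, edgeR adjusted p = 0.0300). The 2 most abundant genes of the list per length over all 6 pools did not pass. Fbxo31, an F-box protein that targets cyclin D1 for degradation, measured 69.9, 88.5 and 69.3 CPM across controls, against 91.0, 143 and 222 CPM in *Mttp-IKO* liver (log2 fold change 1.002, edgeR adjusted p = 0.108). Skp1a, a core subunit of SCF ligases, had a log2 fold change of -0.27 (edgeR adjusted p = 0.278).

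Of the p53 pathway (30 genes, Ccng1, Mdm2 and Cdkn1a aside), 1 rose and 2 fell (10% called, against 4.01% of all genes). An unadjusted p under 0.05 was found for 10 of the 30, 5 in each direction, against 23% of all genes. The pools did not overlap in 30% of the list, 5 genes higher and 4 lower, against 31% of all genes. Ddit4, an inhibitor of mTORC1 signalling, rose from 50.8, 29.9 and 36.4 CPM to 95.6, 87.2 and 75.5 CPM (log2 fold change 1.14, SE 0.217, edgeR adjusted p = 0.0342). Plk2 fell from 19.2, 13.1 and 19.96 CPM to 6.77, 5.62 and 5.33 CPM (log2 fold change -1.56, SE 0.218, edgeR adjusted p = 0.0181). Phlda3, which encodes an inhibitor of AKT, fell from 10.7, 7.74 and 7.93 CPM to 3.55, 3.16 and 1.85 CPM (log2 fold change -1.62, SE 0.287, edgeR adjusted p = 0.0293). Plk3 and Perp, the most abundant of the list per length over all 6 pools, had log2 fold changes of -0.14 and 0.02 (edgeR adjusted p = 0.892 and 0.974). Plk3 was at 89.8, 123.3 and 389 CPM across *Mttp-IKO* pools 1 to 3, against 197 to 253 CPM in control pools.

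The Myc axis (29 genes) held factors of the Myc network, some antagonists of Myc, and known Myc targets in ribosome production and metabolism. Of the 29, 2 rose and none fell (6.90% called, against 4.01% of all genes). The pools did not overlap in 11 genes (37.9%, against 31% of all genes), all of them higher in *Mttp-IKO* liver (against 14.5% of all genes). The 11 include Mxi1, which encodes an antagonist of Myc. The median log2 fold change was 0.21, against 0.01 over all genes. With total count scaling it was 0.03, against -0.17 over all genes. Rrp12, which helps export ribosomal subunits, rose from 16.5, 17.3 and 16.6 CPM to 31.2, 27.1 and 26.5 CPM (log2 fold change 0.75, SE 0.143, edgeR adjusted p = 0.0346). Polr1b, a core subunit of RNA polymerase I, rose from 16.9, 16.2 and 15.8 CPM to 24.8, 23.8 and 27.8 CPM (log2 fold change 0.64, SE 0.143, edgeR adjusted p = 0.0496). Both calls were absent with total count scaling and with a replicate block, in which 0 genes of the list passed with edgeR (3 and 8 had an unadjusted p under 0.05) while 4 passed with DESeq2 on the counts without a block. Of all 17287 genes, 1019 and 592 passed in those edgeR fits (4069 and 3705 at an unadjusted p under 0.05) and 1995 with DESeq2. Ldha and Hspd1, the most abundant of the list per length over all 6 pools, had log2 fold changes of 0.15 and -0.14 (edgeR adjusted p = 0.757 and 0.651).

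Genes of S phase and mitosis lay lower in *Mttp-IKO* liver. Of 28 genes, 27 were tested (Bub1 did not pass the filter on low counts), and of these 6 fell and none rose (22.2% called, against 3.09% of all genes called lower). The pools did not overlap in 19 of the 27 (70.4%, against 31% of all genes), all lower in *Mttp-IKO* liver (against 16.5% of all genes), and the median log2 fold change was -1.04. The list was chosen with earlier results of these data known, and the study had already named cell cycle genes among the altered mRNAs of its RNA-Seq. These counts are therefore a description of the list. The genes that fell were 5 subunits of the MCM replicative helicase, Mcm2 to Mcm6, and the licensing factor Cdt1. Mcm5 fell from 12.3, 10.8 and 11.2 CPM to 3.90, 3.26 and 2.94 CPM (log2 fold change -1.76, SE 0.193, edgeR adjusted p = 0.0126). Mcm2, Mcm3 and Cdt1 had log2 fold changes of -1.24, -1.22 and -1.04 (edgeR adjusted p = 0.0288, 0.0213 and 0.0223). Pcna and Rrm2, the most abundant of the list per length over all 6 pools, had log2 fold changes of -0.42 and 0.07 (edgeR adjusted p = 0.348 and 0.937). Stellate cell and recruited macrophage markers were lower in the same pools, at 466 to 523 and 60.4 to 136 CPM. B cell markers summed to 2.70 to 3.16 CPM across controls, against 0.671 to 1.29 CPM in *Mttp-IKO* pools. T cell markers summed to 3.08 to 6.30 CPM across controls, against 1.85 to 3.19 CPM in *Mttp-IKO* pools, with overlap. The part of these cell types in the S phase and mitosis values was not tested.

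**Figure D4:**
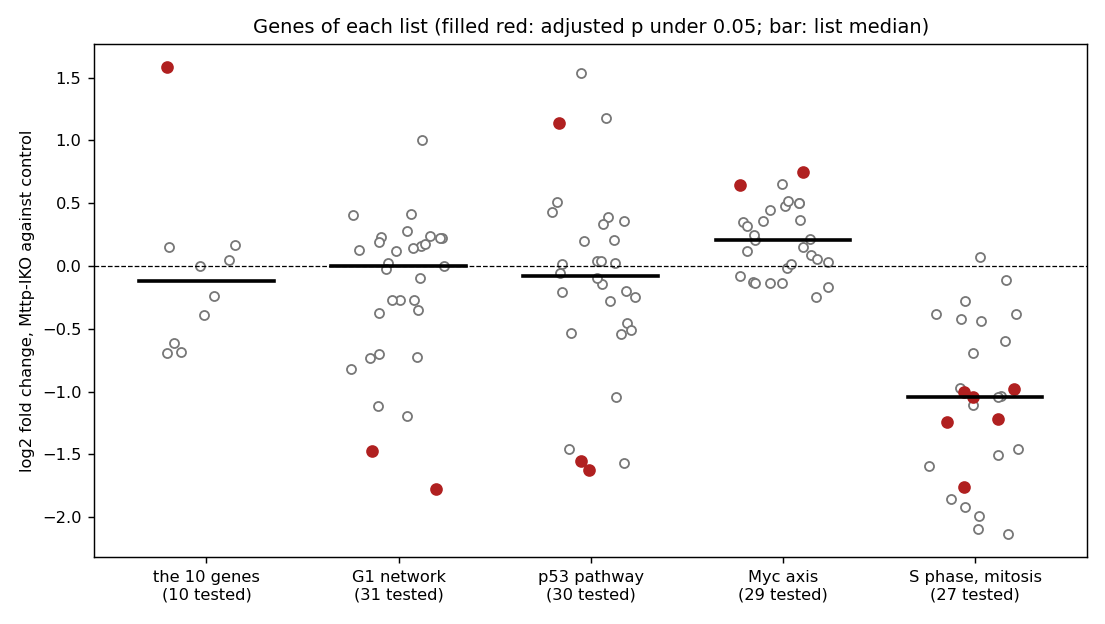
Log2 fold change of *Mttp-IKO* against control (vertical axis) for each tested gene of the 10 genes and of 4 lists of related genes, with filled red points for adjusted p under 0.05 and bars for medians. The medians are -0.12, -0.00, -0.08, 0.21 and -1.04 from left to right, and all but 1 of the 27 S phase and mitosis genes lie below 0.

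Calls in these lists depended on which pools were included. Without control pool 1, control pool 3 or *Mttp-IKO* pool 2, no gene of the 4 lists passed with edgeR, and without *Mttp-IKO* pool 1 only 2 genes of S phase and mitosis did. In those fits 12 and 14 of 27 S phase and mitosis genes tested (without control pools 1 and 3) and 16 and 15 of 28 tested (without *Mttp-IKO* pools 1 and 2), 5 to 11 of the G1 network, 5 to 13 of the p53 pathway and 3 to 9 of the Myc axis had an unadjusted p under 0.05. Of all genes tested, 2476 of 17652 and 2539 of 17869 did without control pools 1 and 3. Without *Mttp-IKO* pools 1 and 2, 4457 of 17943 and 3221 of 17873 did. Without control pool 2 the calls were 8 for S phase and mitosis, 2 for the G1 network, 2 for the p53 pathway and 0 for the Myc axis (7 of the 29 had an unadjusted p under 0.05, against 3592 of 17784 genes in all). Without *Mttp-IKO* pool 3 they were 5, 3, 4 and 5. The calls over all genes in these fits were 892 of 17784 and 864 of 17854. The Wald test of DESeq2 on all pools called 14, 5, 6 and 4 genes in the same order, against 1995 of all 17287 genes.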

How the data were processed

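Read counts per gene were deposited by the authors for 3 control and 3 *Mttp-IKO* liver RNA pools, beside CPM and RPKM values that the authors had computed from them. The CPM and RPKM columns followed from the counts in 100% of values within 0.1%, so only counts were tested. Libraries were made with rRNA depletion (KAPA RiboErase), aligned with STAR 2.5.1a to GRCm38 (Ensembl release 76) and counted from unique, unambiguous reads with featureCounts 1.4.6-p5. Counting of unique reads lowers genes that share sequence or exons with others.

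Samples were grouped by genotype label. Genes passing filterByExpr (minimum count 10, total 15) entered a quasi-likelihood test in edgeR 4.0.16 (R 4.3.3) with TMM scaling and Benjamini-Hochberg adjustment over 17287 genes. SE was derived from the log2 fold change and F statistic, and intervals are 95%. The script was tested on simulated counts. There, 11 of 100 genes with a log2 change of 1 in either direction were called, and 86 of 100 with a change of 2. A difference of log2 1 or less that did not pass is therefore not shown to be absent. Levels per length used CPM per kb of the deposited gene length (summed exons). Alternatives were RLE and total count scaling, DESeq2 1.42.0, limma 3.58.1 voom, no low-count filter, a replicate block, removal of the length trend and leaving out each pool. Exons of promoter windows came from GENCODE M21. No 2 libraries agreed within sampling noise (chi-square per degree of freedom 35.4 to 292).

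The 10 genes and all lists were chosen with earlier results of these data known. Named genes were the 10, up to 4 genes per list with the largest log2 fold change among those past the threshold, the 2 of highest mean level per length over all pools, the 3 genes most like each called gene, and Trp53, named after its values were seen.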

Additional observations from a re-analysis of the deposited data

How the results depend on the processing

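Calls depended on which pools were included: leaving out 1 pool at a time gave 0 to 892 genes against 694, 0 to 3 of the 10 genes, 0 to 3 of the G1 network, 0 to 4 of the p53 pathway, 0 to 5 of the Myc axis and 0 to 8 of S phase and mitosis. Cdkn1a passed under every setting with all 6 pools. Total count scaling shifted the median of all genes to a log2 fold change of -0.17 and removal of the length trend to 0.12, from 0.01, and the split of 159 higher and 535 lower genes became 112 and 907 and 353 and 508. Total count scaling called 2 of the 10 genes (Ccng1 at -0.80) and 0 of the Myc axis, and reversed Ccnd3 (-0.0151), Cdkn1b (-0.179), Mdm2 (-0.136) and Myc (-0.0242). DESeq2 called 1995 genes in all, 2 of the 10 (Ccng1 at -0.60), 5 of the G1 network, 6 of the p53 pathway, 4 of the Myc axis and 14 of S phase and mitosis. Limma-voom called 428 genes and 1 of the Myc axis, with Cdkn1b at -0.00058. Without the low-count filter 990 of 27802 genes and 1 of the Myc axis passed, and Cdkn1b was -0.0237. Left-out pools reversed Cdkn1b (-0.0727 to 0.0904), Mdm2 (-0.0780 to 0.154) and Myc (-0.227 to 0.308). The causes were not tested.

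Same-numbered pools deviated together with r of 0.139, 0.112 and 0.00698, against -0.125 to 0.0208 for pools of different number. Numbers 1 and 2 thus stood above the other pairs, while *Mttp-IKO* pool 3 correlated best with control pool 2 (0.0208). These values do not settle whether the numbers pair the pools. The labels do not state a pairing, and the main test used none. With a replicate block, 592 genes passed in all, 1 of the 10, 1 of the G1 network, 0 of the Myc axis, 3 of the p53 pathway and 6 of S phase and mitosis, and Cdkn1b was -0.0022.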

Other observations

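Among the 9 tested genes with a p53 element in a RefSeq promoter window, those named here were chosen after their values were seen. Bco1, which encodes the enzyme that cleaves beta-carotene, had a log2 fold change of 0.60 (SE 0.170, edgeR adjusted p = 0.0898) and was higher in every *Mttp-IKO* pool. Calhm2 was lower in every *Mttp-IKO* pool, at -0.77 (SE 0.288, edgeR adjusted p = 0.167). Clec4b1, a C-type lectin gene, was also lower without overlap, at -1.81 (SE 0.645, edgeR adjusted p = 0.150). Rps27l, a known p53 target, overlapped between genotypes at -0.58 (SE 0.389, edgeR adjusted p = 0.413).

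In the G1 network, Ccne1, which encodes cyclin E1, was at 4.56, 3.69 and 3.44 CPM across controls, against 1.26, 1.61 and 2.56 CPM in *Mttp-IKO* pools, a larger difference than that of Ccne2 (log2 fold change -1.11, SE 0.319, edgeR adjusted p = 0.0923), chosen after its values were seen. Cdk4 and Cdk6, the partners of the D-type cyclins, had log2 fold changes of -0.27 and -0.27 (edgeR adjusted p = 0.341 and 0.325). Btg2, a p53-induced antiproliferative gene, was at 73.8, 50.6 and 241 CPM across *Mttp-IKO* pools 1 to 3, against 30.8 to 52.5 CPM in control pools (log2 fold change 1.53, edgeR adjusted p = 0.147). Myc and Plk3 were highest in the same pool, which is also the library low in small RNA reads, and the part of that in these values was not tested.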
